A study of Homo sapiens with 12 samples.

Results

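The TGF-beta ligands, latency proteins and receptors are 10 of the 60664 genes in the count table, taken by symbol. They are the ligands TGFB1, TGFB2 and TGFB3, the latent TGF-beta binding proteins LTBP1, LTBP2, LTBP3 and LTBP4, the receptors TGFBR1 and TGFBR2, and TGFBI, a secreted matrix protein named for its induction by TGF-beta. All 10 passed the filter on low counts in every comparison.

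RNA-seq was performed on 12 libraries of MDA-MB-231, a human triple-negative breast cancer cell line of mesenchymal appearance, with 4 libraries in each of 3 groups. WT normoxia libraries came from untreated wild type cells, WT hypoxia libraries from wild type cells kept under hypoxia for 24 hr (1% O2 in the methods), and CCAR2 KO libraries from untreated cells of genotype CCAR2-/-, so that all 3 groups share one parental line and no group combined the knockout with hypoxia. CCAR2 encodes DBC1, a nuclear protein known as an inhibitor of the deacetylase SIRT1, and the study asked how its loss relates to the response to low oxygen. The knockout was made with a LentiCRISPR vector, and neither the labels nor the methods say whether the line is a clone or a pool, or whether WT cells carried an empty vector. The labels give replicate numbers but not separate cultures. The methods speak of biological replicates, but the numbers given there differ from each other and from the libraries deposited per group. The p-values therefore measure the spread between these libraries, which may be technical.

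TGF-beta is secreted in a latent form, folded inside its own propeptide, which most often is joined to an LTBP that anchors the complex to fibrillin microfibrils in the matrix. Integrins, thrombospondin and proteases release the active dimer, which binds TGFBR2. TGFBR2 then phosphorylates TGFBR1, and TGFBR1 phosphorylates SMAD2 and SMAD3, which enter the nucleus with SMAD4. In breast cancer cells the pathway is known both for growth arrest and for invasion and matrix production.

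The deposited counts of a library summed to between 153904088 and 213743693 in WT normoxia, between 76384973 and 195621872 in WT hypoxia, and between 68599412 and 152328450 in CCAR2 KO. The hypoxia range overlapped with both others, while every CCAR2 KO sum lay below every WT normoxia sum. The part of this difference in the results was not tested. Levels are given as CPM, in which each count is set against the total of its library, after that total was scaled over all 12 libraries by TMM, a factor that leaves most genes with no average difference. CCAR2 was at 148, 148, 148 and 152 CPM in WT normoxia, at 147, 141, 153 and 152 CPM in WT hypoxia, and at 54.6, 55.5, 60.7 and 58.1 CPM in CCAR2 KO. CCAR2 was thus lower in every knockout library, though its transcript was still counted there (log2 fold change -1.34, SE 0.04, adjusted p = 2.14e-09), and hypoxia left it near the WT level (0.02, adjusted p = 0.802).

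All 6 listed markers of the line (VIM, CD44, AXL, CAV1, ZEB1 and MSN) were above 1 CPM in each group, with sums of 8575 to 8994 CPM in WT normoxia, 7698 to 8205 CPM in WT hypoxia and 8147 to 8769 CPM in CCAR2 KO. ZEB1 was called lower in hypoxia (63.7 to 43.5 CPM) and was higher in CCAR2 KO (64.7 CPM) than in hypoxia. Luminal and epithelial markers summed to 21.2 to 23.9 CPM, 17.9 to 20.2 CPM and 25.1 to 27.5 CPM in the same order, with none called. Of these 6, 3 were above 1 CPM in WT normoxia, 2 in hypoxia and 3 in CCAR2 KO. EPCAM (11.6 to 17.5 CPM over the 12 libraries) and GATA3 (4.8 to 8.2 CPM) were among them in each group. ESR1, PGR and CDH1 were at or below 0.304 CPM in each group mean. Blood and endothelial markers summed to 91.9 to 102 CPM in WT normoxia, 100.3 to 118 CPM in hypoxia and 78.1 to 86.3 CPM in CCAR2 KO, with 2 of 6 (CD68 and PECAM1) above 1 CPM. Of the 4 tested in CCAR2 KO, PECAM1 was called higher (2.60 to 5.46 CPM) and the others gave negative values that were not called, among them CD68 (95.7 to 77.0 CPM), with a median log2 fold change of -0.61. Fibroblast markers summed to between 1.04 and 2.01 CPM per library, with POSTN at 0 in all 12 and PDGFRB called higher in CCAR2 KO (0.80 to 1.19 CPM). The part of these markers in the results was not tested. In bulk RNA, fewer cells of a type and less RNA per cell cannot be told apart.

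Each pair of groups was compared with the quasi-likelihood test of edgeR, adjusted by Benjamini and Hochberg over all genes tested, and a gene was called where the adjusted p was under 0.05 and the log2 fold change was 0.5 or more in size. Of the 10 genes, 2 were called higher in hypoxia (LTBP2 and LTBP3) and none lower, against 5.83% of 21776 genes called higher and 1.43% called lower. In CCAR2 KO 5 were called higher (TGFB2, LTBP1, LTBP2, LTBP3 and TGFBR2) and 1 lower (TGFBI), against 6.73% of 21410 genes called higher and 2.94% called lower. Set directly against WT hypoxia, CCAR2 KO was higher for 4 (TGFB2, LTBP1, TGFBR1 and TGFBR2) and lower for 1 (TGFBI), against 7.08% of 21158 genes called higher and 7.88% called lower. The 4 libraries of one group lay wholly above or below those of the other for 8 of the 10 genes in each comparison, and for 27.6% of all genes tested in hypoxia, 31.7% in CCAR2 KO and 35.8% between the 2. The median log2 fold change of the 10 genes was 0.24 in hypoxia, 0.52 in CCAR2 KO and 0.40 between them, beside 0.01, 0.01 and -0.02 over all genes tested. The first 2 comparisons share the WT normoxia libraries.

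**Figure D1:**
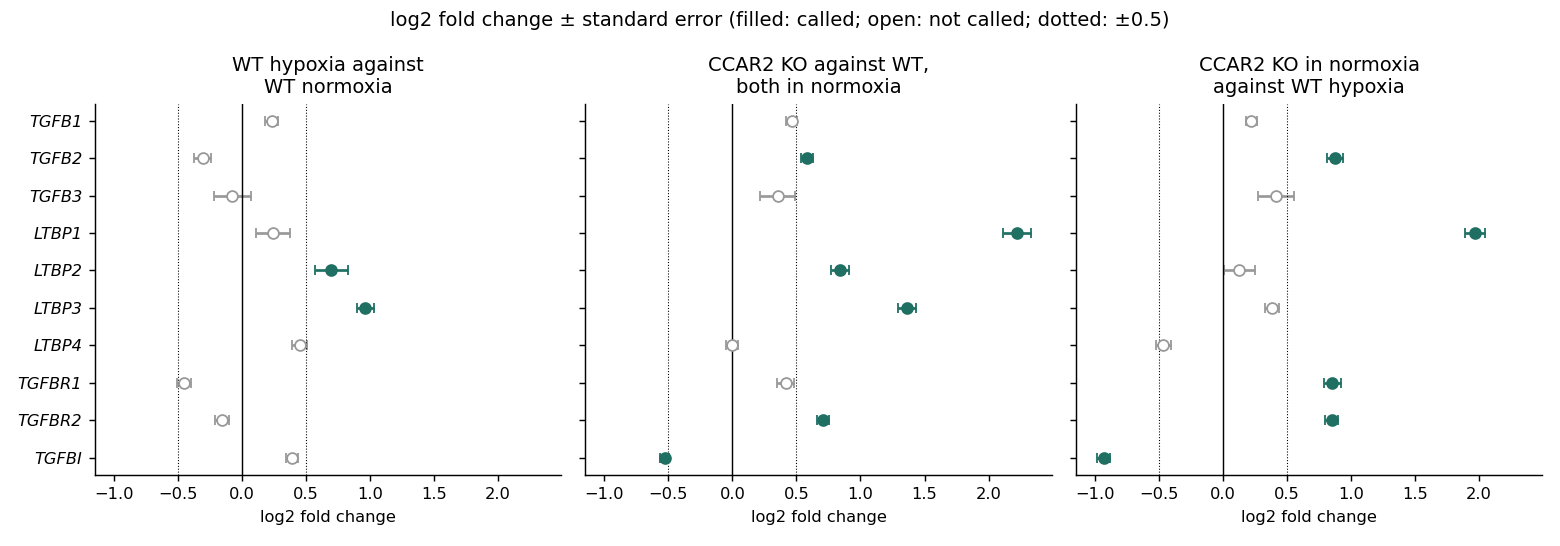
log2 fold change ± standard error of the 10 genes in the 3 comparisons, with filled points for called genes and dotted lines at the fold limit of 0.5. LTBP1 stands farthest to the right in both comparisons of CCAR2 KO (2.22 and 1.97), and TGFBI is the only one called lower (-0.53 and -0.93).

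Set per kilobase of exon, the levels in WT normoxia ran in the order TGFBI (40.7 CPM per kb), TGFB1 (37.9), TGFBR2 (27.4), LTBP4 (23.2), TGFB2 (14.8), TGFBR1 (6.73), LTBP3 (3.09), LTBP2 (1.36), LTBP1 (0.79) and TGFB3 (0.41). No neighbours in this order overlapped across the 4 libraries. In hypoxia the order differed at 2 places, with LTBP4 (31.1 CPM per kb) above TGFBR2 (24.1) and LTBP3 (5.92) above TGFBR1 (4.82), again with no overlap between neighbours. In CCAR2 KO the order began with TGFB1 (50.9 CPM per kb), TGFBR2 (43.5) and TGFBI (27.4), and LTBP1 (3.59) stood above LTBP2 (2.37). There LTBP4 overlapped with TGFB2, and TGFBR1 with LTBP3. TGFB3 had the lowest level per kilobase of the 10 in all 3 groups. The length used was the union of exons over all annotated transcripts, which can exceed that of the transcripts expressed. It joined 21 transcripts to 10298 bases for LTBP3, 39 to 8108 for LTBP4 and 2 to 4704 for TGFBR2. The order of the genes therefore depends on this choice, and other lengths were not tried.

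**Figure D2:**
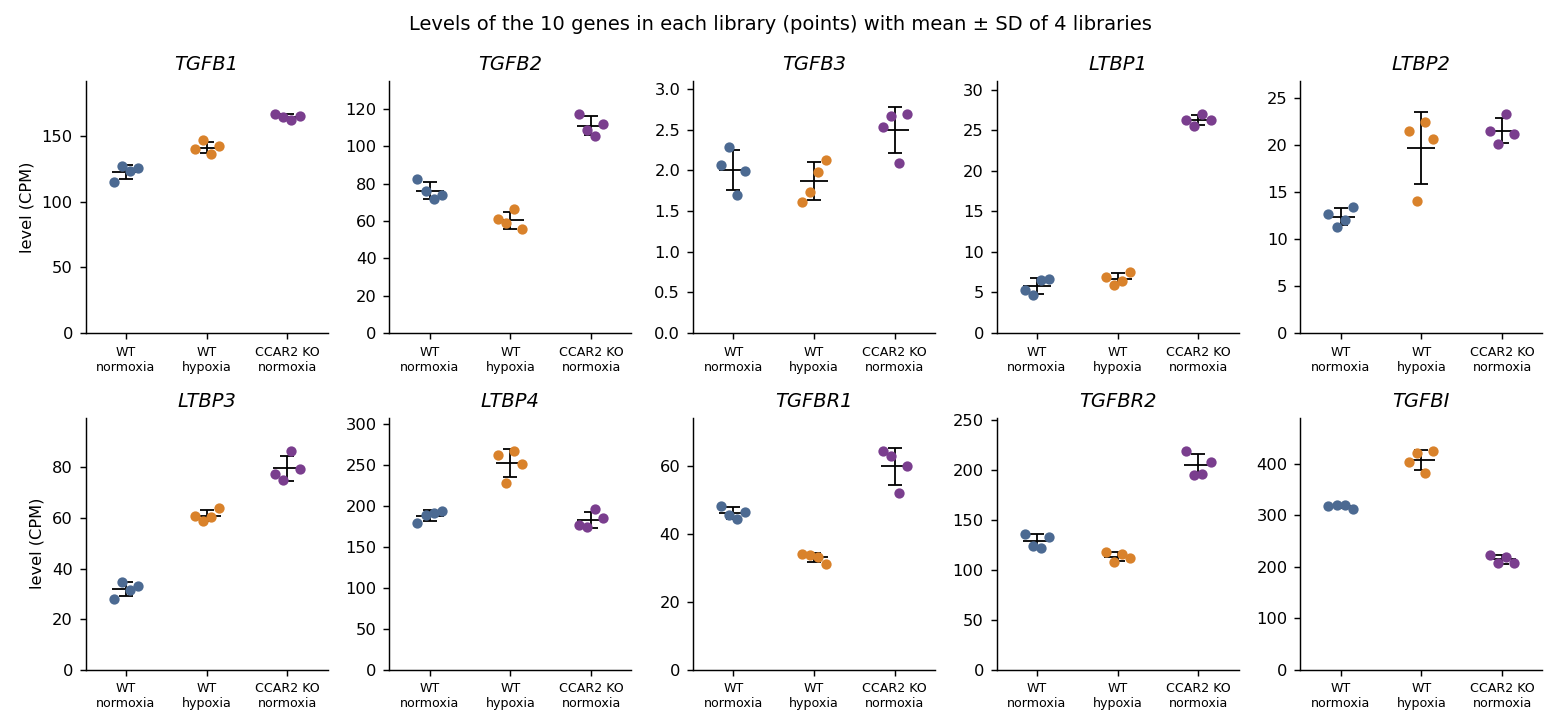
Level in CPM of each gene in the 12 libraries (points, by group) with mean ± SD of 4 libraries; each axis starts at 0 and has its own scale. The 4 CCAR2 KO libraries of LTBP1 sit between 25.6 and 27.0 CPM, and all 8 WT libraries sit at or below 7.51 CPM.

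The latent TGF-beta binding proteins held the largest differences. LTBP1, which binds the propeptide of all 3 ligands through a disulfide bond and targets the complex to the matrix, was at 5.33, 4.65, 6.57 and 6.61 CPM in WT normoxia, at 6.93, 5.92, 6.46 and 7.51 CPM in WT hypoxia, and at 26.2, 25.6, 27.0 and 26.3 CPM in CCAR2 KO. The knockout libraries were close together and far above both WT groups, which overlapped each other. LTBP1 rose 4.66-fold in CCAR2 KO (log2 fold change 2.22, SE 0.11, adjusted p = 4.01e-08) and was 3.91-fold higher than in WT hypoxia (1.97, SE 0.08, adjusted p = 1.91e-08). Hypoxia itself gave 0.24 (SE 0.13, adjusted p = 0.224).

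LTBP3, which also binds the latent ligand and is required for the secretion of TGF-beta in some cells, was at 28.1, 34.8, 31.3 and 33.3 CPM in WT normoxia, at 60.6, 58.7, 60.4 and 64.0 CPM in WT hypoxia, and at 77.4, 75.0, 86.6 and 79.5 CPM in CCAR2 KO. The 3 groups did not overlap, and every hypoxia and knockout library lay above every WT normoxia library. LTBP3 rose 1.95-fold in hypoxia (log2 fold change 0.96, SE 0.07, adjusted p = 9.14e-06) and 2.57-fold in CCAR2 KO (1.36, SE 0.07, adjusted p = 4.56e-08). The direct comparison gave 0.38 (SE 0.05, adjusted p = 0.000203), under the fold limit.

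LTBP2, a relative that binds fibrillin but not latent TGF-beta, was at 12.7, 11.3, 12.1 and 13.4 CPM in WT normoxia, at 21.5, 14.0, 22.5 and 20.6 CPM in WT hypoxia, and at 21.6, 20.1, 23.3 and 21.2 CPM in CCAR2 KO. WT hypoxia replicate 2 stood below the other hypoxia libraries but above all WT normoxia libraries. LTBP2 rose 1.62-fold in hypoxia (log2 fold change 0.70, SE 0.13, adjusted p = 0.00298) and 1.79-fold in CCAR2 KO (0.84, SE 0.07, adjusted p = 3.59e-06). Hypoxia and knockout libraries overlapped (0.13, SE 0.12, adjusted p = 0.47).

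LTBP4, which binds latent TGFB1 weakly and is needed for elastic fibre assembly, was at 179, 188, 191 and 193 CPM in WT normoxia, at 262, 228, 267 and 250.5 CPM in WT hypoxia, and at 177, 174, 196 and 185 CPM in CCAR2 KO. All hypoxia libraries lay above the 8 others, and knockout and WT normoxia libraries overlapped. The log2 fold change was 0.45 in hypoxia (SE 0.06, adjusted p = 0.000468), 0.00 in CCAR2 KO (SE 0.05, adjusted p = 0.998) and -0.46 between them (SE 0.06, adjusted p = 0.000113), so that LTBP4 passed the adjusted p but not the fold limit in the first and the last. Without WT hypoxia replicate 2 the last value was -0.51, which is past the limit.

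The promoters of the 3 LTBP genes that rose in CCAR2 KO are shown because these genes share that call, though LTBP1 was not called in hypoxia. They are also shown because LTBP1 is known to be made in a long and a short form from separate starts that gene counts cannot tell apart. Starts of a gene are numbered by rising coordinate, so the first of LTBP3, on the minus strand, is the downstream one. The sequences are from RefSeq (GRCh38.p14), and all 10 genes had an entry there, with 23 starts among them. Each runs from 250 bases before to 50 bases after the annotated start, 5′ to 3′ on the strand of the gene, and capitals mark ACGTG or GCGTG, the core letters of the hypoxia response element bound by HIF, or their reverse complements CACGT and CACGC, since motifs were searched on both strands.
LTBP1, start of the long form, chr2:32946703-32947002, plus strand: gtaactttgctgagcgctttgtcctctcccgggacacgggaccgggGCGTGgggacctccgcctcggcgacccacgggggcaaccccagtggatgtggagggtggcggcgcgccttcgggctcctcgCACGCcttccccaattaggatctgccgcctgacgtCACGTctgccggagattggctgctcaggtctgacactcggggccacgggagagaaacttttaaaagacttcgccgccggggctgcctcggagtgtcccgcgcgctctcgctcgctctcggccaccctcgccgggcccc
LTBP1, second of its 3 starts, chr2:33134119-33134418, plus strand: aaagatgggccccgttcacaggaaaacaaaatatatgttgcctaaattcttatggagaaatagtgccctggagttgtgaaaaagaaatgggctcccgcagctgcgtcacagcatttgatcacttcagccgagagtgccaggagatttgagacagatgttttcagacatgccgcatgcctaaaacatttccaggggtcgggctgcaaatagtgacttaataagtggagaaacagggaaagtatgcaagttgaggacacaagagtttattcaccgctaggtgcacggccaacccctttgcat
LTBP2, chr14:74612188-74612487, minus strand: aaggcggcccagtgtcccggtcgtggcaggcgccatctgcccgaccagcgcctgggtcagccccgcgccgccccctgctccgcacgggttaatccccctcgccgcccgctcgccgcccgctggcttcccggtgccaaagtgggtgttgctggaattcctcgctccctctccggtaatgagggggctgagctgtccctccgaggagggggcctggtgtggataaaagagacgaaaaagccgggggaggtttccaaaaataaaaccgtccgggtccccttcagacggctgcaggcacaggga
LTBP3, first of its 2 starts, chr11:65558179-65558478, minus strand: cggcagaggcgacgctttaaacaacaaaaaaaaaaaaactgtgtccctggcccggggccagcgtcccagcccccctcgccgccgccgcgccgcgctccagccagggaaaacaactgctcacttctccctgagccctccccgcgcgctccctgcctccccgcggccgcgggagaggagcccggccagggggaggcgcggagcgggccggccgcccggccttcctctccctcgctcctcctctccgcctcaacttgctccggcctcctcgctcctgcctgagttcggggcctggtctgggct
The first LTBP1 window held 1 ACGTG and 2 GCGTG, and the other windows printed here held neither. Of the 23 windows, 13 held at least 1 of the 2 cores, beside 48.4% of 35116 RefSeq promoters of the same length (21.4% for ACGTG and 36.5% for GCGTG). Windows of neighbouring starts of the same gene can overlap, as in TGFBR1, so the same site can be counted in more than 1 window. The SMAD box GTCT stood in 18 of the 23 windows, beside 84.0% of all promoters, and the longer CAGAC, whose reverse complement begins with GTCT, in 12, beside 45.3%. A match describes letters in a window and shows no binding.

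Among the ligands, TGFB2 was the one called. TGFB2, an isoform that needs a co-receptor to bind TGFBR2 well, was at 82.8, 76.3, 72.1 and 74.0 CPM in WT normoxia, at 60.9, 58.9, 66.5 and 55.5 CPM in WT hypoxia, and at 117, 109, 105 and 112 CPM in CCAR2 KO. The 3 groups did not overlap, with hypoxia at the bottom and the knockout at the top. TGFB2 rose in CCAR2 KO (log2 fold change 0.58, SE 0.05, adjusted p = 2.39e-06) and was 1.83-fold higher in the knockout than in hypoxia (0.88, SE 0.06, adjusted p = 9.86e-07). Hypoxia against normoxia gave -0.31 (SE 0.07, adjusted p = 0.00687), under the fold limit.

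TGFB1, the isoform with the highest level of the 3, was at 115, 127, 123 and 126 CPM in WT normoxia, at 140.0, 147, 136 and 142 CPM in WT hypoxia, and at 167, 164, 162 and 165 CPM in CCAR2 KO. Its groups did not overlap, and the order was normoxia, hypoxia, knockout. None of its differences reached the fold limit, with 0.23 in hypoxia (SE 0.05, adjusted p = 0.0088), 0.46 in CCAR2 KO (SE 0.04, adjusted p = 5.17e-06) and 0.22 between them (SE 0.04, adjusted p = 0.0018). TGFB1 shares 215 exonic bases with HNRNPUL1 on the opposite strand, a gene at 646, 613 and 580.4 CPM in the 3 groups, and whether strand was used in counting is not given in the sources used here, so reads of that stretch cannot be told apart.

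TGFB3, the third isoform, was at 2.07, 2.28, 1.69 and 1.99 CPM in WT normoxia, at 1.61, 1.74, 1.98 and 2.13 CPM in WT hypoxia, and at 2.53, 2.67, 2.09 and 2.69 CPM in CCAR2 KO. A single knockout library lay within the WT range, and the 2 WT groups overlapped. TGFB3 was not called in any comparison, with 0.35 in CCAR2 KO (SE 0.14, adjusted p = 0.0694), -0.07 in hypoxia (SE 0.14, adjusted p = 0.769) and 0.41 between them (SE 0.14, adjusted p = 0.0427).

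Both receptors were lower in the hypoxia libraries and higher in the knockout libraries than in WT normoxia, without overlap. TGFBR2, the ligand-binding type II receptor, was at 136, 123, 122 and 133 CPM in WT normoxia, at 117, 108, 116 and 112 CPM in WT hypoxia, and at 219, 195, 196 and 208 CPM in CCAR2 KO. TGFBR2 rose 1.63-fold in CCAR2 KO (log2 fold change 0.71, SE 0.05, adjusted p = 6.79e-07) and was 1.80-fold higher than in hypoxia (0.85, SE 0.05, adjusted p = 2.98e-07), whereas hypoxia against normoxia gave -0.15 (SE 0.05, adjusted p = 0.0644). TGFBR1, the type I receptor whose kinase acts on SMAD2 and SMAD3, was at 48.2, 45.3, 44.2 and 46.4 CPM in WT normoxia, at 34.0, 33.8, 33.0 and 31.1 CPM in WT hypoxia, and at 64.4, 62.8, 52.0 and 59.8 CPM in CCAR2 KO. It missed the fold limit in hypoxia (-0.45, SE 0.05, adjusted p = 0.00032) and in CCAR2 KO (0.42, SE 0.06, adjusted p = 0.000386), and was 1.81-fold higher in the knockout than in hypoxia (0.86, SE 0.07, adjusted p = 3.7e-06).

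TGFBI, which binds collagen and integrins in the matrix, was at 318, 321, 319.9 and 312 CPM in WT normoxia, at 404, 420.4, 382 and 426 CPM in WT hypoxia, and at 223, 207, 219.7 and 207 CPM in CCAR2 KO. The order of its groups was the reverse of that of the receptors, with the knockout at the bottom, hypoxia at the top and no overlap. TGFBI fell 1.44-fold in CCAR2 KO (log2 fold change -0.53, SE 0.04, adjusted p = 6.08e-07), close to the fold limit, and was 1.91-fold lower in the knockout than in hypoxia (-0.93, SE 0.05, adjusted p = 1.69e-07). Hypoxia gave 0.39 (SE 0.05, adjusted p = 0.000382).

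The make-up of each group of genes was described from levels per kilobase, with no test. Its shares and ratios depend on the same exon lengths. LTBP4 made up 81.6% ± 0.43 (SD, n = 4) of the summed LTBP level in WT normoxia, 77.5% ± 0.74 in hypoxia and 62.2% ± 0.31 in CCAR2 KO. The share of LTBP1 was 2.78% ± 0.41, 2.28% ± 0.19 and 9.90% ± 0.30 in the same order, and that of LTBP3 was 10.9% ± 0.73, 14.8% ± 0.90 and 21.3% ± 0.24. The summed LTBP level was 28.4 ± 1.08, 40.1 ± 2.69 and 36.2 ± 1.90 CPM per kb, so both conditions lay above WT normoxia, in hypoxia with most of the added level in LTBP4 and in the knockout with it in LTBP1, LTBP2 and LTBP3. The summed ligand level was 53.1 ± 1.14, 55.7 ± 0.90 and 72.9 ± 1.60 CPM per kb, of which TGFB1 made up 71.3%, 78.2% and 69.8%. Summed LTBP to summed ligand stood at 0.535 ± 0.018 in WT normoxia, 0.720 ± 0.058 in hypoxia and 0.497 ± 0.035 in CCAR2 KO. The receptor sum was 34.1 ± 1.74, 28.9 ± 0.93 and 52.2 ± 2.95 CPM per kb, with TGFBR2 at 80.3%, 83.3% and 83.3% of it.

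**Figure D3:**
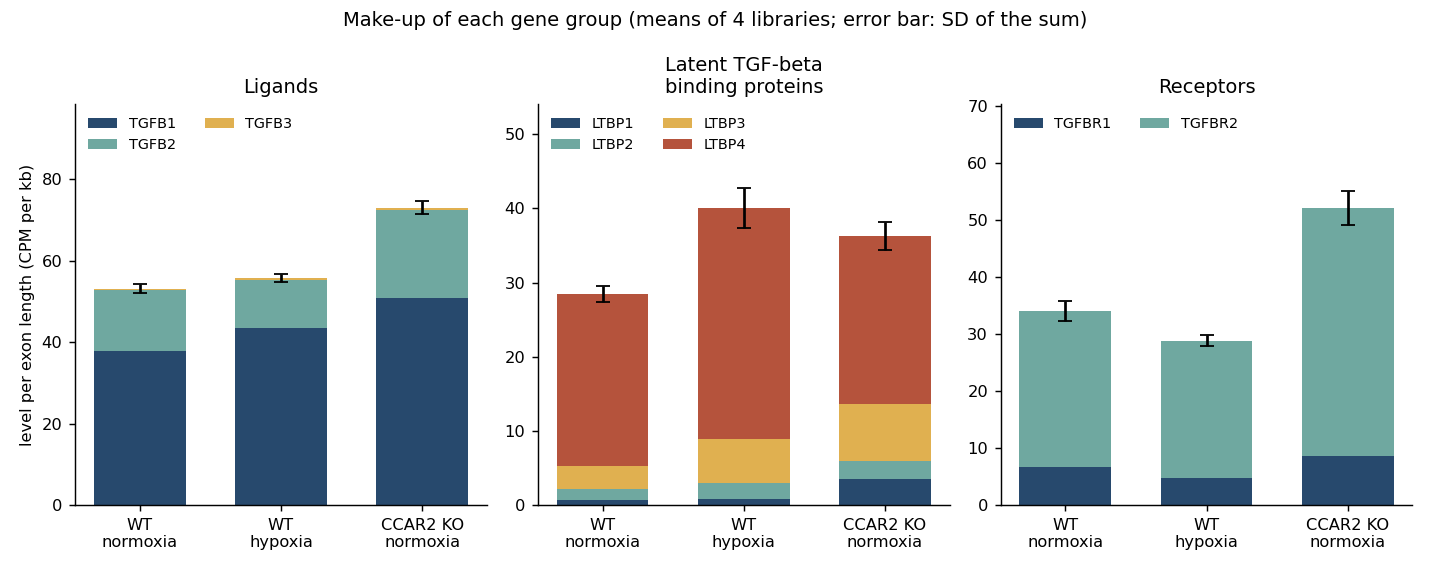
Stacked mean levels (CPM per kb of exon, 4 libraries a group) of the ligands, the LTBP genes and the receptors, with error bars for the SD of each sum. The LTBP1 and LTBP3 segments are widest in CCAR2 KO, and LTBP4 is widest in WT hypoxia.

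GC content was set beside these values because the hypoxia differences moved with it across the table. In hypoxia the median log2 fold change of all genes went from -0.165 in the fifth of genes with the lowest GC content to 0.182 in the highest, against -0.041 to 0.045 in CCAR2 KO. The longest transcripts of TGFB1, LTBP3 and LTBP4 were at 63.5%, 67.8% and 66.7% GC, and those of TGFB2 and TGFBR1 at 38.9% and 39.0%. With the GC trend of each library removed, an alternative added after the data had been seen, the hypoxia values of LTBP3 and LTBP2 were 0.73 (adjusted p = 1.28e-05) and 0.56 (adjusted p = 0.00749), both still called. The value of TGFB1 was then 0.04 (adjusted p = 0.675), of TGFB2 -0.15 (adjusted p = 0.0994), of LTBP4 0.22 (adjusted p = 0.00719) and of TGFBR1 -0.30 (adjusted p = 0.00121), all nearer to 0 than as first fitted. In CCAR2 KO the 6 calls held, with LTBP1 at 2.19, LTBP3 at 1.34 and TGFBI at -0.56. In the direct comparison LTBP3 went to 0.59 and was called (adjusted p = 2.06e-06), LTBP4 went to -0.27 (adjusted p = 0.001), and TGFB1 to 0.38 (adjusted p = 0.000431). What sets the trend was not tested.

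**Figure D4:**
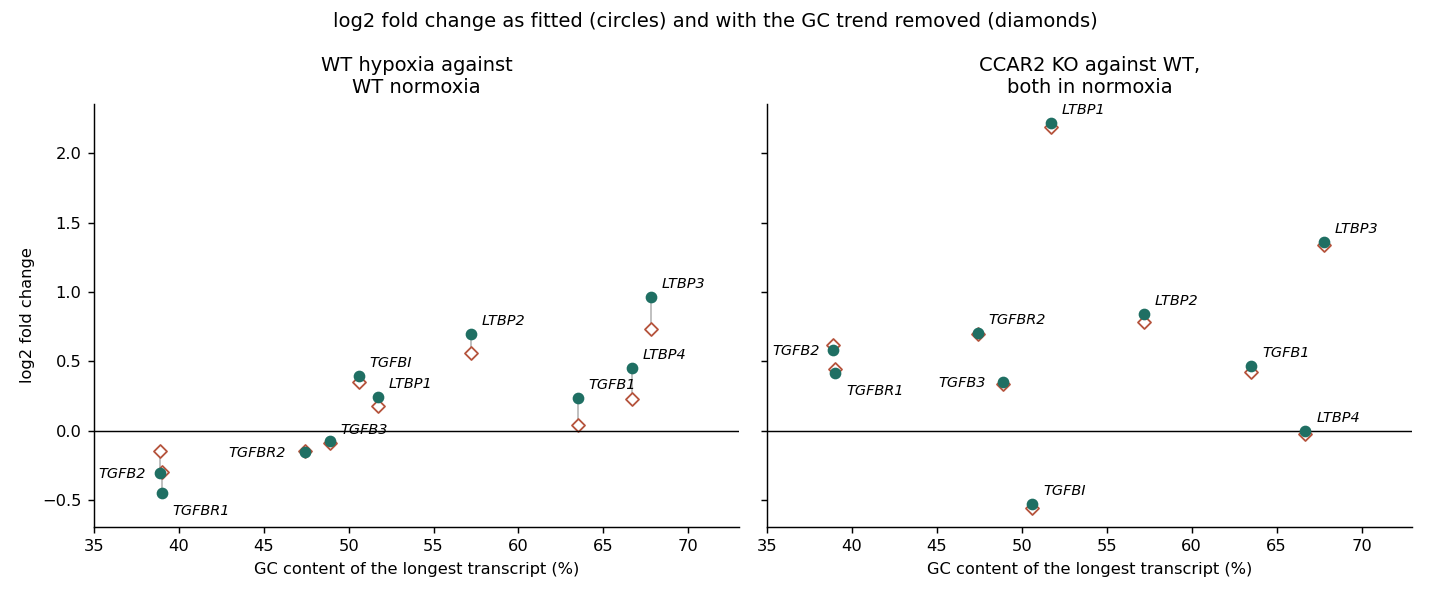
log2 fold change of each gene against the GC content of its longest transcript (%), as fitted (circles) and with the GC trend removed (diamonds), in hypoxia and in CCAR2 KO. In hypoxia the distance between circle and diamond is widest for the genes at either end of the axis, and in CCAR2 KO each pair nearly coincides.

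The other genes of the pathway were taken from fixed lists, and any gene beyond the rule for names is given because it belongs to a small count, chosen after its values were seen. Of the partners and activators that hold or release the latent complex, 5 of 14 tested rose in CCAR2 KO (THBS1, BMP1, ITGB3, NRROS and MMP14) and none fell, with a median log2 fold change of 0.56. THBS1, thrombospondin 1, which activates the latent complex, went from 314 ± 8.25 to 608 ± 27.2 CPM (0.99, adjusted p = 1.36e-08). BMP1, a protease that cleaves LTBP1, went from 19.4 ± 0.69 to 38.2 ± 1.29 CPM (1.02, adjusted p = 4.55e-08). In hypoxia 2 of 13 rose, ITGB3 (1.17), an integrin subunit that pairs with the alpha V chain, and TGM2 (0.53), a transglutaminase that crosslinks LTBP1 to the matrix, and the median was 0.03.

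Of the microfibril scaffold to which LTBP proteins attach, 2 of 9 tested rose in CCAR2 KO. FBN1, fibrillin 1, went from 42.6 ± 5.10 to 72.2 ± 4.11 CPM (log2 fold change 0.80, adjusted p = 6.39e-06) and EFEMP1, a fibulin, from 16.1 ± 0.66 to 29.97 ± 0.45 CPM (0.94, adjusted p = 1.41e-07). In hypoxia 2 of 9 rose, the fibulins EFEMP2 (1.74), which binds LTBP proteins and elastin, and FBLN1 (1.02), and FBN1 stood at -0.06 (adjusted p = 0.796). The medians were 0.11 and 0.30.

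Co-receptors and decoys held 2 genes of 5 that rose in CCAR2 KO, and none was called in hypoxia. ENG, endoglin, rose from 40.9 ± 1.34 to 67.1 ± 2.46 CPM (log2 fold change 0.75, adjusted p = 1.3e-07), and BAMBI, a decoy receptor that lacks a kinase, from 6.04 ± 0.85 to 10.3 ± 0.53 CPM (0.81, adjusted p = 8.73e-05). TGFBR3, betaglycan, which presents TGFB2 to the type II receptor, gave 0.39 in the knockout (adjusted p = 0.000204) and -0.25 in hypoxia (adjusted p = 0.0201), both under the fold limit. In the same order TGFBRAP1 gave -0.05 (adjusted p = 0.578) and -0.19 (adjusted p = 0.181). CD109, at 0.0886 CPM in WT normoxia, gave 0.04 (adjusted p = 0.976) and 0.40 (adjusted p = 0.713). Of 9 other type I and type II receptors of the family, none was called in CCAR2 KO, while in hypoxia ACVRL1 rose (0.64) and BMPR1B fell (-0.86).

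Of the 6 SMAD genes that carry the signal, none was called in hypoxia or in CCAR2 KO, while SMAD9 was called lower in CCAR2 KO than in hypoxia (log2 fold change -0.55, adjusted p = 0.00164). SMAD3 was at 181 ± 6.23 CPM in WT normoxia, 177 ± 17.9 CPM in hypoxia (log2 fold change 0.00, adjusted p = 0.978) and 215 ± 8.07 CPM in CCAR2 KO (0.29, adjusted p = 0.000196). In hypoxia and then CCAR2 KO, SMAD2 gave -0.14 (adjusted p = 0.227) and 0.01 (adjusted p = 0.951), and SMAD4 -0.14 (adjusted p = 0.0759) and 0.02 (adjusted p = 0.846). Of the SMADs of the BMP branch, SMAD5 gave -0.28 and -0.15, SMAD1 -0.15 and 0.12, and SMAD9 0.18 and -0.36. Among 11 inhibitors, SMAD6, which blocks type I receptors of the BMP branch, rose in both comparisons (0.71, adjusted p = 0.00327, and 1.16, adjusted p = 1.21e-05), and PMEPA1, a feedback inhibitor that sequesters SMAD2 and SMAD3, rose in CCAR2 KO (0.60, adjusted p = 0.00722).

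Of 20 genes known as TGF-beta targets, 5 rose in CCAR2 KO and others fell, with a median log2 fold change of 0.13. FN1, fibronectin, went from 420.4 ± 47.0 to 1203 ± 59.4 CPM (1.56, adjusted p = 3.15e-08), and PTHLH, the parathyroid hormone-related protein, from 0.77 ± 0.08 to 2.04 ± 0.31 CPM (1.44, adjusted p = 2.67e-05), and COL1A1, SNAI2 and ANGPTL4 also rose. TAGLN, an actin-binding protein, fell from 40.4 ± 4.44 to 16.2 ± 0.86 CPM (-1.28, adjusted p = 1.86e-07) and IL11, a cytokine, from 54.8 ± 2.95 to 24.7 ± 1.60 CPM (-1.11, adjusted p = 1.16e-07). In hypoxia 2 of 20 rose and none fell, ANGPTL4 (2.52), which is also a known target of hypoxia, and TAGLN (0.77), with a median of 0.09. The list thus held called genes in both directions in the knockout.

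Among the other ligands of the family, 3 of 15 tested rose in CCAR2 KO (BMP4 at 1.08, GDF15 at 1.25 and LEFTY1) and 2 fell (INHBA at -0.67 and BMP6 at -1.29), and in hypoxia 1 of 16 rose (INHA) and 1 fell (GDF15 at -0.53), all as log2 fold changes. Among 7 extracellular antagonists, which trap BMP or activin ligands or bind them in the matrix, FSTL1 (-0.85), FSTL3 (-0.74) and NOG (-0.57) fell in CCAR2 KO, and 1 rose in hypoxia (NOG at 0.81).

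Set directly against WT hypoxia, CCAR2 KO was higher for 5 of 14 latency partners and activators (NRROS, THBS1, ITGAV, MMP14 and BMP1), with a median log2 fold change of 0.46 and none lower. Of the 9 scaffold genes tested, FBN1 and EFEMP1 were higher and FBLN1, EFEMP2 and MFAP2 lower. TGFBR3 and BAMBI were higher among the co-receptors and decoys, ACVR1 and BMPR1B among the other receptors, and PMEPA1 among the inhibitors, with none lower in these 3 lists. Of the target genes, FN1 and PTHLH were higher, and TAGLN (-2.07), ANGPTL4 (-2.01) and IL11 (-0.98) were among those lower. Other family ligands split evenly, with 4 of 15 higher and 4 lower, and among the antagonists FSTL3 (-1.23) and NOG (-1.39) were lower.

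**Figure D5:**
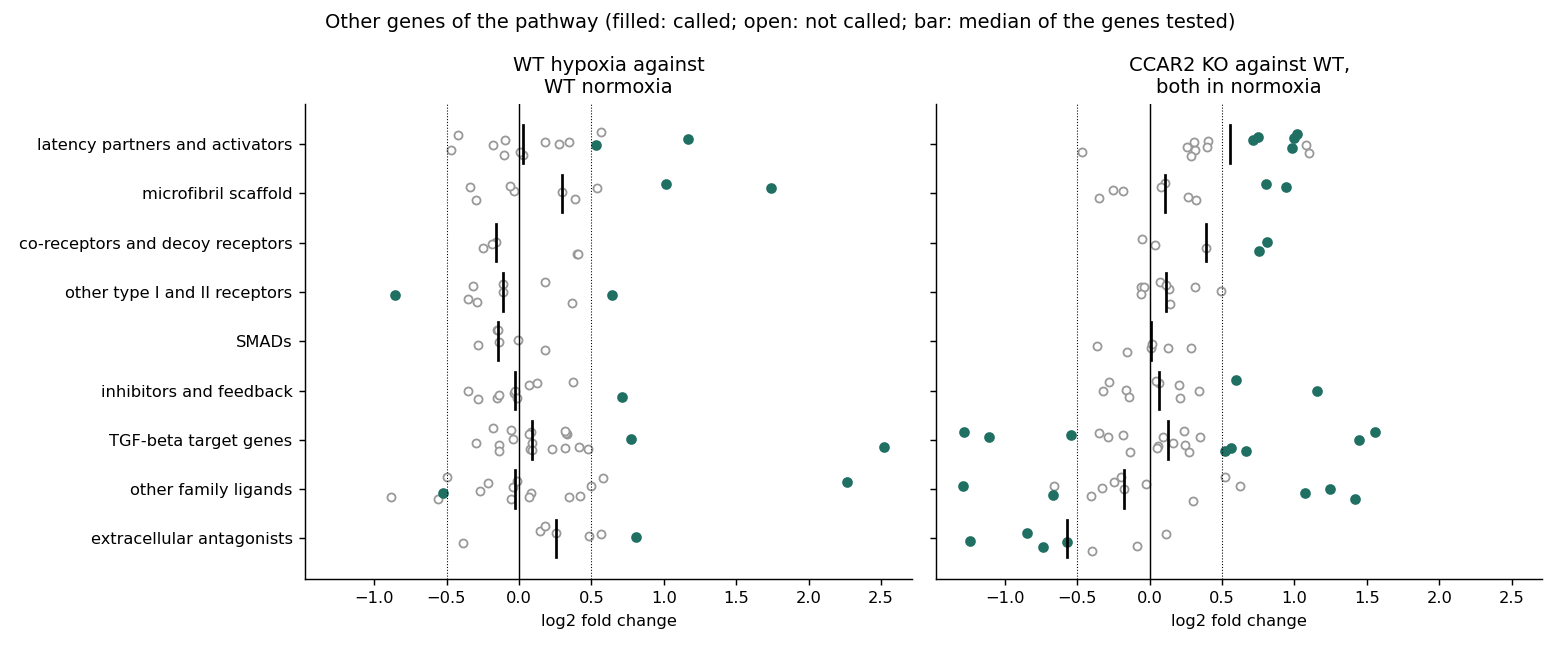
log2 fold change of each tested gene on the 9 other lists of the pathway, with filled points for called genes, open points for the rest and a bar at the median. In CCAR2 KO the called latency partners all lie to the right, the called antagonists all lie to the left, and the SMAD row has no filled point in either panel.

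For the members called in at least 2 comparisons, genes among the 3 with the most similar pattern were taken by Pearson's r of log2 CPM over the 12 libraries among 14701 genes. With 3 groups, such an r mainly reflects the order and spacing of the group means. Among those for LTBP1 were B4GALNT3 and HAS2 (r = 0.992 and 0.990), and among those for LTBP2 were DENND3 and POFUT2 (0.980 and 0.979). LTBP3 was most like PARP10, IGFBP6 and FAM234A (0.989, 0.985 and 0.979). TGFB2 was most like SAMD9, CPEB2 and LMO7 (0.994, 0.993 and 0.992), and TGFBR2 most like GRB10, RASA1 and CRYBG1 (0.998, 0.997 and 0.995). Among those for TGFBI were LNCOG and F3 (0.995 and 0.994).

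By position on GRCh38 (GENCODE 29, an annotation that may not be the one behind the counts), LTBP1 lies at chr2:32946972-33399509, LTBP2 at chr14:74498170-74612378, LTBP3 at chr11:65538805-65558930 and LTBP4 at chr19:40592883-40629818. TGFB1 lies at chr19:41301587-41353911, TGFB2 at chr1:218346235-218444619 and TGFB3 at chr14:75958099-75982991. TGFBR1 lies at chr9:99104038-99154192, TGFBR2 at chr3:30606502-30694142 and TGFBI at chr5:136028895-136063818. Apart from HNRNPUL1, the genes that share exonic bases with a member were at or below 0.642 CPM in each group. Among them was TGFB2-OT1, which lies within TGFB2 on the same strand and shares 1371 of the 5151 exonic bases of TGFB2. How reads of that stretch were assigned is not given in the sources used here, so the level of TGFB2 may depend on it.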

How the data were processed

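Reads were, per the study's methods, cleaned, aligned with Hisat2 and quantified with StringTie, while the submitters' processing notes name HISAT2, SAMtools and featureCounts. The genome build and annotation are not given in the sources used here. The authors deposited a table of expected counts, estimated per gene, whole and not scaled to depth, so that library sums need not equal read numbers. The labels name Trizol and TruSeq and the methods miRNeasy and NEBNext Ultra. Each pair of groups was fitted on its 8 libraries with edgeR 4.0.16 (glmQLFit and glmQLFTest) in R 4.3.3, with TMM normalization, filterByExpr and Benjamini-Hochberg adjustment over all genes tested. Calls needed an adjusted p under 0.05 and a log2 fold change of 0.5 or more in size. Differences are log2 fold changes of the group named first, with edgeR standard errors, and levels per kilobase used the union of exons.

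Alternatives were DESeq2 1.42.0, voom of limma 3.58.1, other scalings, filters and call limits, one fit of all 12 libraries, a replicate block, counts divided by 4, each library left out, and, added after seeing the data, a lowess trend (span 0.3) on GC content removed. The tests were tried on simulated data first. The members and lists were chosen with earlier results of these data known. Named were the members and CCAR2, per list the 2 highest and 2 lowest called genes with no overlap and a mean of at least 100 counts, all SMADs and co-receptors tested, the 3 genes most like each member called in at least 2 comparisons, and genes overlapping a member, of which some are not reported here.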

Additional observations from a re-analysis of the deposited data

Results flagged for a closer look

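In 33 groups of 4 libraries (the 10 genes and CCAR2, in 3 conditions each), 1 value stood apart. CCAR2 in WT normoxia replicate 4 was at 152.28 CPM beside 147.69 to 148.34 CPM in the other 3 libraries, and the gap took 0.8585 of the range of the group, past Dixon's critical value for a group of 4. Chance alone passes that limit in about 1 group in 20. No value of the 10 genes did so.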

How the results depend on the processing

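Each of the 10 genes was recomputed under 20 alternatives in 3 comparisons. Of these 600 values, 576 kept their side of the threshold, 14 passed it only in the alternative, 10 no longer passed it, and 0 were called in the opposite direction. LTBP4 in CCAR2 KO, near 0 as first fitted, changed sign in some alternatives (log2 fold change -0.035 to 0.022) and was called in none. With an adjusted p alone, the members called went from 2 to 7 in hypoxia and from 5 to 9 in the direct comparison, and the genes called from 1582 to 5127 in hypoxia, from 2070 to 6506 in CCAR2 KO and from 3165 to 7390 in the direct comparison. With a log2 fold limit of 1, the members called were 0 in hypoxia, 2 in CCAR2 KO (LTBP1 and LTBP3) in place of 6, and 1 in the direct comparison (LTBP1), and the genes called 487, 775 and 1219. These shifts follow from the call limits. Besides these, LTBP4 passed the limit in hypoxia under upper-quartile scaling (0.50) and in the direct comparison without WT hypoxia replicate 2 (-0.51), and LTBP3 passed it in the direct comparison with the GC trend removed (0.59), and the cause was not tested.

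The deviations of same-numbered libraries from their group means gave correlations between -0.0085 and 0.19 in hypoxia, -0.072 and 0.079 in CCAR2 KO, and 0.020 and 0.091 in the direct comparison. Libraries of different numbers were not correlated for comparison, so whether the numbers pair the libraries was not tested. The replicate block called 2, 6 and 5 members and 1507, 1996 and 3091 genes, and changed no call of a member. Other scalings moved the median of all genes by at most 0.051 (log2). Counts limit TGFB3 most, at 126 to 420 per library, and LTBP1 next, from 491. These may exceed the reads behind them: in all 12 libraries the value 4 was held by more genes (1084 to 1250) than 3 (834 to 1051) or 5 (549 to 743), which is why counts were also divided by 4, with 2, 6 and 5 members called.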
